A study of Homo sapiens with 6 samples.

Results

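DUSP4, DUSP5, DUSP6, SPRY2, SPRY4, SPRED1, SPRED2, ETV4, ETV5 and PHLDA1 are genes whose transcription is known to follow the ERK branch of MAPK signaling, and most of their products feed back on it. These 10 genes were chosen by symbol among the 62492 genes listed, and all 10 were abundant enough to be tested among 17000 genes. The data were poly(A) RNA-seq of HCT116 cells, a human colorectal cancer cell line. Cells of both groups were transfected at 20 nM with Lipofectamine RNAiMAX, with either a control siRNA (siControl) or an siRNA against NONO (siNONO), an RNA-binding protein of paraspeckles, labeled WT and NONO knockdown, and each group had 3 libraries, numbered as Sets 1 to 3. The design describes the Sets as biological replicates, and the comparison asked which transcripts change when NONO is reduced. NONO was targeted with a single siRNA duplex, so the knockdown and any other effect of that duplex cannot be told apart. The library totals were 32659002, 27491389 and 21765393 estimated counts for siControl Sets 1, 2 and 3, and 28715263, 28260060 and 27946591 for siNONO.

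ERK is the last kinase of a chain that runs from growth factor receptors through RAS, RAF and MEK. Active ERK raises transcription of its own inhibitors. Among them are phosphatases of the DUSP family, which remove phosphate from ERK and related kinases, and the Sprouty (SPRY) and SPRED proteins, which act on the steps from receptor and RAS to RAF. ETV4 and ETV5 are ETS transcription factors of the PEA3 group, whose genes are induced by ERK and held down by the repressor CIC. HCT116 cells are epithelial, and KRT8, the most abundant of 8 epithelial markers, stood at 1480, 1440 and 1491 CPM (counts scaled to library size by TMM) with siControl and at 1345, 1346 and 1515 CPM with siNONO. Of these 8 markers, 4 were called higher and none lower at an adjusted p of 0.05, where 23.2% of all genes tested were called higher and 23.4% lower. By log2 fold change, CLDN7, a tight junction gene, was highest at 1.09, then EPCAM at 0.315, and KRT8 was lowest at -0.07, next to CLDN4 at -0.06. Of 7 matched markers of leukocytes, endothelium and fibroblasts, COL1A2 was at 0 counts in every library, and PTPRC, CD3E, CDH5 and DCN had a count in no more than 2 libraries each. The other 2 were COL1A1, the most abundant, with means of 37.9 and 38.5 CPM in siControl and siNONO, and CD68, a lysosomal protein gene used as a macrophage marker, which rose from 1.96 to 5.21 CPM. The summed level of these markers was 20.0, 19.8 and 24.5 TPM (a level relative to transcript length) with siControl and 23.9, 22.5 and 24.6 TPM with siNONO, and the part of CD68-expressing cells in the results was not tested.

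NONO itself checked the labels. It was measured at 496, 494.5 and 516 CPM in siControl Sets 1, 2 and 3 and at 89.5, 95.5 and 100.4 CPM in siNONO Sets 1, 2 and 3. Every siNONO library was far below every siControl library. The log2 fold change was -2.40 ± 0.03 (SE, n = 3 Sets; adjusted p = 2.47e-13). This p, like the others adjusted over all genes below, came from the quasi-likelihood test of edgeR, with Benjamini-Hochberg correction. The SE and confidence intervals of log2 fold changes were derived from the same fit and do not measure the spread between Sets alone.

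The ERK feedback genes moved in both directions in siNONO cells, and none changed by as much as 1 on the log2 scale. DUSP4, DUSP5 and ETV4 rose, while SPRY4, SPRED1, SPRED2 and ETV5 fell. DUSP6, SPRY2 and PHLDA1 did not pass the test. With the threshold at an adjusted p of 0.05, 7 of the 10 genes passed, where 46.6% of all genes tested were called. The 3 higher genes compare with 23.2% of all genes called higher, and the 4 lower genes with 23.4% called lower. The median log2 fold change of the 10 genes was -0.07 against -0.005 over all genes tested, and within Sets 1, 2 and 3 it was -0.03, -0.08 and -0.09. In limma on log2(TPM + 1) it was -0.15 against -0.07 over all genes. The direction was the same in all 3 Sets for 8 of the 10 genes, the others being DUSP6 and PHLDA1. These 8 include SPRY2, which was not called. The share of all genes with the same direction in every Set was not computed, so the count is a description only. Bulk RNA-seq gives an average over the culture, so fewer cells with a transcript and less of it per cell cannot be told apart.

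**Figure D1:**
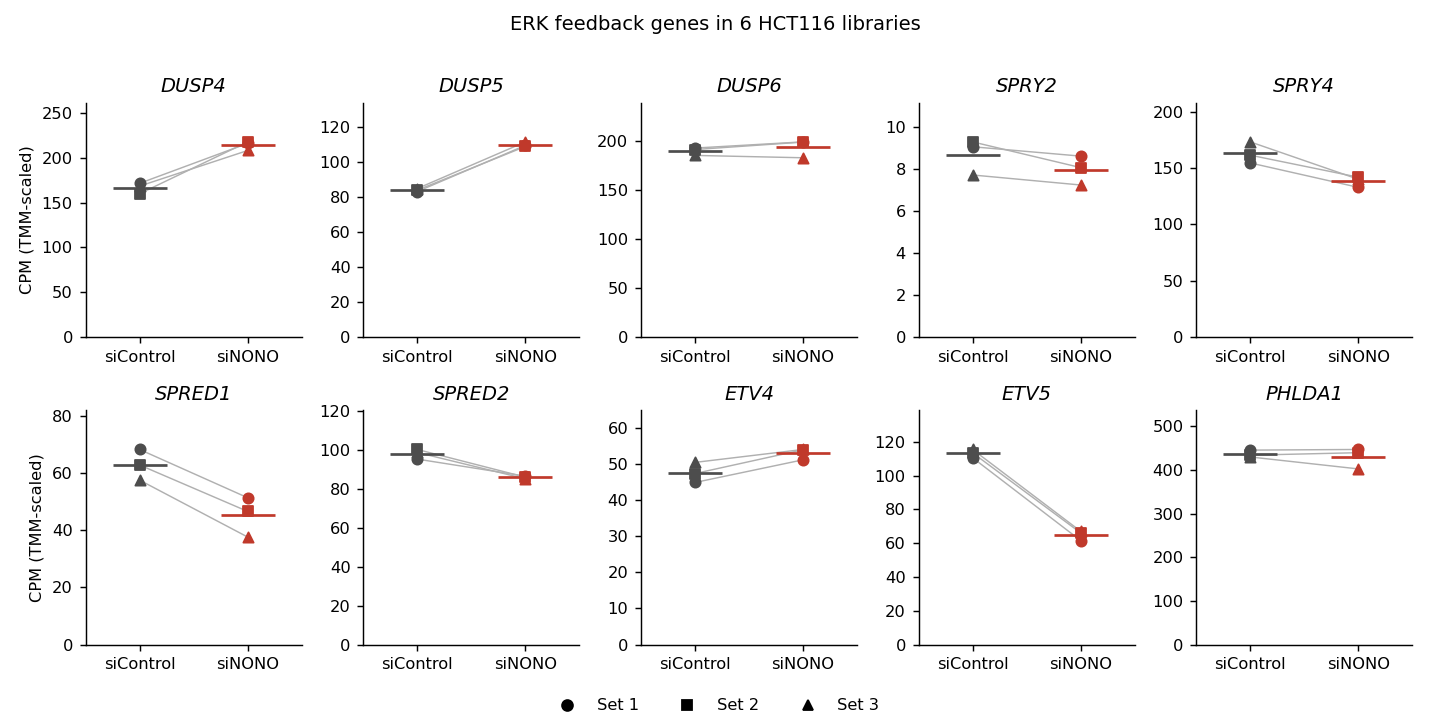
CPM (vertical axis, from 0) of each of the 10 ERK feedback genes in the 3 siControl (grey) and 3 siNONO (red) libraries. Marker shapes give the Set, thin lines join libraries of a Set, and horizontal bars are group means. ETV5 fell from a mean of 113 to 64.9 CPM without overlap, and the DUSP6 and PHLDA1 libraries of both groups overlap.

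**Figure D2:**
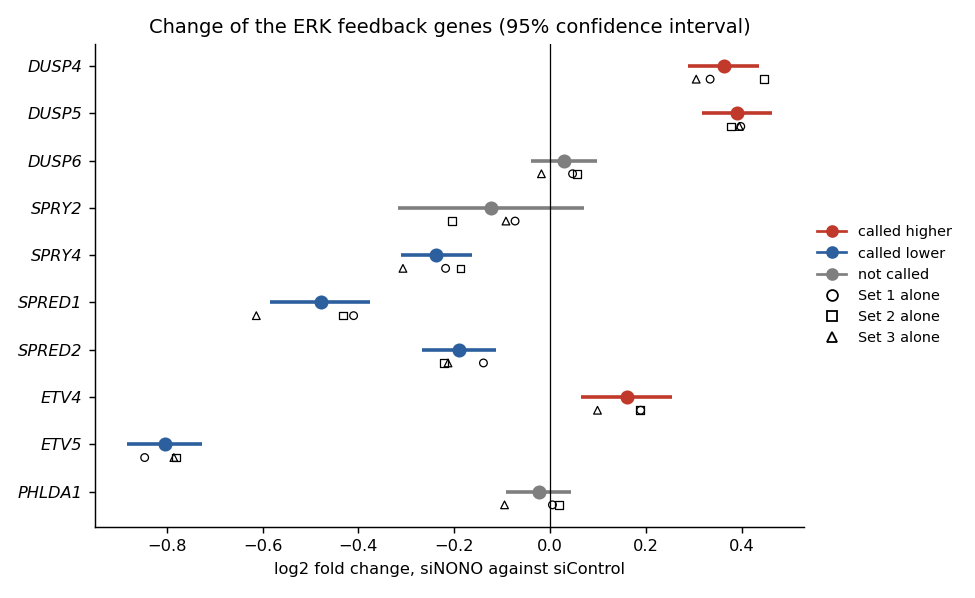
Log2 fold change of siNONO against siControl (horizontal axis) for each ERK feedback gene, with its 95% confidence interval as a bar and the 3 Sets as open markers below it. ETV5 lies lowest at -0.80 and DUSP5 highest at 0.39, and the intervals of DUSP6, SPRY2 and PHLDA1 include 0.

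Of the dual-specificity phosphatase genes among the 10, DUSP4 and DUSP5 rose and DUSP6 did not pass the test. DUSP5 (chr10:112257665-112271291, GRCh37, plus strand) encodes a nuclear phosphatase specific for ERK. It was at 83.1, 83.9 and 84.8 CPM in siControl Sets 1, 2 and 3 and at 109.5, 108.9 and 111.5 CPM in siNONO. The siNONO libraries were all higher, with little spread within either group, and the log2 fold change was 0.39 ± 0.03 (SE, n = 3 Sets), or 1.31-fold (adjusted p = 1.22e-06). DUSP4, a nuclear phosphatase that acts on ERK and also on JNK and p38, was at 171.5, 160 and 168 CPM with siControl and at 216, 218 and 208 CPM with siNONO. Again the groups did not overlap, and the log2 fold change was 0.36 ± 0.03 (SE), or 1.29-fold (adjusted p = 2.84e-06).

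DUSP6 (chr12:89741012-89746278, minus strand) encodes the cytoplasmic phosphatase specific for ERK and is widely read as an index of ERK output. Its level was 193, 191 and 185 CPM in siControl Sets 1, 2 and 3 and 199, 199 and 183 CPM in siNONO. The groups overlapped, since the siNONO library of Set 3 was the lowest of the 6. The log2 fold change was 0.03, with a 95% confidence interval from -0.04 to 0.10 (adjusted p = 0.484), and 7.37% of all genes tested changed less than DUSP6. In limma on log2(TPM + 1) its log2 fold change was -0.08, also without a call (adjusted p = 0.138), on a scale where the median of all genes was -0.07. The level of DUSP4 relative to DUSP6, as a ratio of TPM values, was 0.378, 0.360 and 0.376 with siControl and 0.469, 0.473 and 0.473 with siNONO. The ratio of DUSP5 to DUSP6 was 0.426, 0.440 and 0.438 with siControl and 0.556, 0.552 and 0.591 with siNONO. In both ratios the siNONO libraries lay above all siControl libraries. Each gave an exact two-sided permutation p of 0.1, the smallest that 3 against 3 unpaired libraries allow. The adjusted p was 0.167 over 5 ratios compared between members of a family. Unlike the edgeR test, the permutations of these ratios did not keep the pairing by Set.

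Of the Sprouty genes, whose products block activation of RAS and RAF downstream of receptor tyrosine kinases, SPRY4 fell. SPRY4 (chr5:141689992-141706020, minus strand) was at 154.5, 161.4 and 173.2 CPM in siControl Sets 1, 2 and 3 and at 133, 142 and 140 CPM in siNONO. All siNONO libraries lay below the lowest siControl library. The log2 fold change was -0.24 ± 0.03 (SE), which left 84.9% of the siControl level (adjusted p = 9.41e-05). SPRY2 (chr13:80910111-80915261, minus strand), the least abundant of the 10 genes, was at 9.04, 9.28 and 7.70 CPM with siControl and at 8.60, 8.05 and 7.23 CPM with siNONO. Within each Set the siNONO library was the lower one, but the groups overlapped. Its log2 fold change was -0.12, with a 95% confidence interval from -0.32 to 0.07 (adjusted p = 0.287). The libraries held 169 to 298 SPRY2 counts each, and its interval, the widest of the 10, includes both 0 and the log2 fold change of SPRY4.

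Both SPRED genes fell. SPRED1 (chr15:38545037-38649450, plus strand) and SPRED2 (chr2:65537985-65659771, minus strand) encode membrane-bound relatives of the Sprouty proteins that bring the RAS-inactivating protein neurofibromin to RAS. SPRED1 was at 68.3, 62.9 and 57.6 CPM in siControl Sets 1, 2 and 3 and at 51.4, 46.6 and 37.6 CPM in siNONO. All siNONO libraries were lower, and the library of Set 3 was the lowest of its group in both arms. SPRED1 thus had a log2 fold change of -0.48 ± 0.05 (SE), leaving 71.7% of the siControl level (adjusted p = 4.41e-06). SPRED2 was at 95.2, 100.1 and 98.6 CPM with siControl and at 86.4, 85.9 and 85.1 CPM with siNONO. The drop was small beside that of SPRED1 but the groups did not overlap, and the log2 fold change was -0.19 ± 0.04 (SE), or 87.6% of the siControl level (adjusted p = 0.00075). The TPM ratio of SPRED1 to SPRED2 overlapped between the groups (exact permutation p = 0.2, adjusted p = 0.25), and so did that of SPRY2 to SPRY4 (exact permutation p = 0.7, adjusted p = 0.7).

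The ETS factor genes of the PEA3 group parted. ETV5 (chr3:185764103-185828107, minus strand) was at 110.6, 113.5 and 115.5 CPM in siControl Sets 1, 2 and 3 and at 61.6, 66.1 and 67.0 CPM in siNONO. Every siNONO library was well below every siControl library. Its log2 fold change of -0.80 ± 0.04 (SE) was the greatest of the 10 genes in size, left 57.3% of the siControl level (adjusted p = 3.49e-09) and exceeded in size the change of 94.1% of all genes tested. The gene shares 4651 bases with DGKG, a diacylglycerol kinase gene on the same strand named here after its values were seen. DGKG held 627, 514 and 427 counts with siControl and 340, 326 and 342 with siNONO, a log2 fold change of -0.68 ± 0.06 (SE; adjusted p = 2.83e-06), and how reads of the shared stretch were split between these genes was not tested.

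ETV4 (chr17:41605212-41656988, minus strand) was at 44.9, 47.4 and 50.5 CPM with siControl and at 51.2, 54.0 and 54.1 CPM with siNONO. The siNONO libraries were all higher, but the lowest of them was close to the highest siControl library. The log2 fold change was 0.16 ± 0.04 (SE), or 1.12-fold (adjusted p = 0.0089). That call was the least secure of the 7: it was lost without the Set as a block (adjusted p = 0.0645), with DESeq2 (adjusted p = 0.0878) and with limma on TPM, where the groups overlapped. It was also lost without siControl Set 1 (adjusted p = 0.0655), siNONO Set 1 (0.0822) or siNONO Set 2 (0.0664). Since Set was a block, the fits without either library of Set 1 both rest on Sets 2 and 3 and are not separate checks. ETV4 lies within the span of DHX8 on the other strand, which was not called (log2 fold change -0.04; adjusted p = 0.343). The TPM ratio of ETV4 to ETV5 was 0.846, 0.911 and 0.869 with siControl and 1.75, 1.70 and 1.73 with siNONO. ETV5 was thus the more abundant transcript in each siControl library and ETV4 in each siNONO library. The ratio difference was 0.98 on the log2 scale (exact two-sided permutation p = 0.1, the smallest possible without pairing by Set, adjusted p = 0.167). ETV1, the other PEA3 gene, was called lower, from 46.7, 46.1 and 46.2 CPM to 40.8, 42.1 and 31.8 CPM, with Set 3 of siNONO the lowest (log2 fold change -0.28; adjusted p = 0.00408).

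PHLDA1 (chr12:76419227-76425556, minus strand) encodes a pleckstrin homology-like protein induced by growth factors. Its level was 446, 434 and 430 CPM in siControl Sets 1, 2 and 3 and 447, 440 and 403 CPM in siNONO. The groups overlapped, and the lowest library was siNONO Set 3, as for DUSP6. Its log2 fold change was -0.02, with a 95% confidence interval from -0.09 to 0.04 (adjusted p = 0.578).

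Per transcript length, DUSP6 and PHLDA1 were the most abundant of the 10 genes in both groups. With siControl, DUSP6 was at 119.9 ± 3.56 TPM (SD, n = 3) and PHLDA1 at 110.5 ± 3.29 TPM, followed by SPRY4 at 65.2 ± 4.93 TPM and DUSP5 at 52.1 ± 0.98 TPM. ETV5 at 45.0 ± 2.71 TPM, DUSP4 at 44.6 ± 2.47 TPM and ETV4 at 39.4 ± 2.60 TPM came next, and each of these overlapped its neighbor in that order. SPRED2 at 34.7 ± 1.61 TPM, SPRED1 at 14.9 ± 1.44 TPM and SPRY2 at 5.77 ± 0.50 TPM were the lowest and did not overlap each other. With siNONO, DUSP5 at 64.0 ± 1.59 TPM came next after PHLDA1, ahead of DUSP4 at 53.4 ± 1.24 TPM and SPRY4 at 51.8 ± 2.45 TPM, which overlapped each other. ETV5 at 23.6 ± 0.73 TPM now lay below ETV4 at 40.8 ± 0.96 TPM and SPRED2 at 28.8 ± 0.16 TPM. The 10 genes summed to 533, 518 and 545 TPM with siControl and to 501, 493 and 487 TPM with siNONO, and DUSP6 and PHLDA1 made up between 42.3% and 44.8% of that sum in each library.

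**Figure D3:**
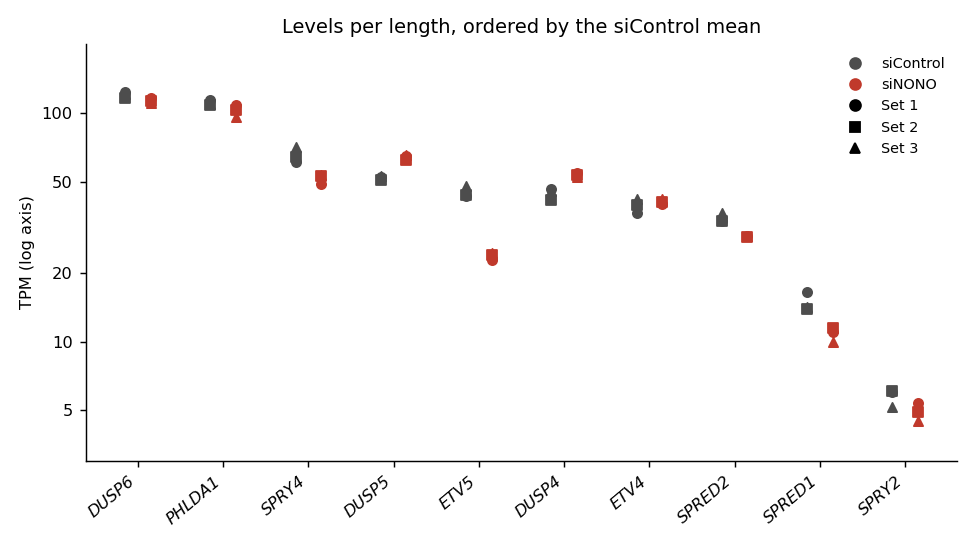
TPM of the 10 ERK feedback genes (vertical axis, log scale) in the siControl (grey) and siNONO (red) libraries, ordered by the siControl mean. DUSP6 and PHLDA1 lie highest in both groups, and ETV5 moves from 45.0 to 23.6 TPM, from above ETV4 to below it.

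Promoter sequence upstream of the feedback genes is shown for SPRED1 and SPRED2, which fell, and for DUSP6, which was not called, because ETS factors bind sites with a GGAA core. Sequences came from RefSeq (GRCh38.p14), where 6 of the 10 genes were matched, with 9 starts: DUSP6, SPRY2, SPRY4, SPRED1, SPRED2 and PHLDA1. DUSP4, DUSP5, ETV4 and ETV5 were not matched. Each line runs 5′ to 3′ in the direction of transcription from 120 to 41 bases before the start, and capitals mark GGAA or its reverse complement TTCC. The SPRED1 window is chr15:38252716-38252795 on the plus strand, the SPRED2 window chr2:65432640-65432719 and the DUSP6 window chr12:89352542-89352621, both on the minus strand.
SPRED1: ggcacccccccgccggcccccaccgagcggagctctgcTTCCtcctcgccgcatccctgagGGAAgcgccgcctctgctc
SPRED2: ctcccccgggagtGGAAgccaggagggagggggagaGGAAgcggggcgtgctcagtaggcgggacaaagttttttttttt
DUSP6: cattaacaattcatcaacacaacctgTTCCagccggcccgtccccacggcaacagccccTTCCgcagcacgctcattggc

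Each of these windows held 2 cores. SPRED2 has another start, not shown, whose window (chr2:65366819-65366898) held 3. The bases after that start were not found in an annotated transcript of SPRED2. Of the other genes matched, SPRY4, which also fell, had 1 core in its window and PHLDA1 had 4. For SPRY4, 51 of the upstream bases lay within an annotated transcript of the gene. The windows of the SPRY2 starts held 1, 2 and 1. The bases after the SPRY2 start with 2 cores were likewise not found in a transcript of that gene. That start and the other SPRED2 start are still counted among the 9. Over the 250 bases before the start, searched on both strands, GGAA was present at 9 of 9 starts of the feedback genes and in 92.7% of 35116 promoters. The longer ETS site CCGGAA, which contains the core, was found for PHLDA1 and SPRY2 and in 14.5% of all promoters. None of the 9 starts held the CIC octamers TGAATGAA (1.40% of all promoters) and TCAATGAA (0.635%), the cyclic AMP response element TGACGTCA (1.65%) or the AP-1 site TGANTCA (6.57%). A match describes these letters in this window and is not a measure of binding.

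Upstream of ERK, AREG, EREG, BTC, HBEGF and NRG1, ligand genes of the EGF receptor family, rose. Of 8 ligand genes tested, 5 were called higher and none lower, with a median log2 fold change of 0.51 (23.2% of all genes were called higher and 23.4% lower). AREG, which encodes amphiregulin, was at 142, 141 and 128 CPM with siControl and at 369, 379 and 360 CPM with siNONO, well apart in every Set (log2 fold change 1.43 ± 0.03, SE; adjusted p = 1.37e-11). EREG, for epiregulin, was the most abundant ligand gene. It went from 1045, 968.5 and 877 CPM to 1606, 1558 and 1336 CPM without overlap, a log2 fold change of 0.64 ± 0.03 (SE; adjusted p = 2.83e-09). BTC, for betacellulin, rose by 0.69 and HBEGF by 0.38 on the log2 scale. NRG1, for neuregulin, was called higher at 1.04 ± 0.31 (SE; adjusted p = 0.0148), at a level of 1.61 CPM or less in every library. EGF (-0.12) and EPGN (-0.10) had the lowest log2 fold changes, and neither they nor TGFA (0.10) were called. Summed over the 8 ligand genes, the level was 588, 546 and 511 TPM with siControl and 1026, 994 and 929 TPM with siNONO.

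Of 3 genes whose products restrain EGF receptors, ERRFI1 and CBL rose, where 23.2% of all genes were called higher. ERRFI1, whose product MIG6 binds and inhibits the receptor kinase, was at 463, 426 and 413 CPM with siControl and at 868.5, 868.7 and 802.3 CPM with siNONO. No library of one group reached the other, and the log2 fold change was 0.96 ± 0.03 (SE; adjusted p = 1.86e-10). CBL, a ubiquitin ligase for activated receptors, rose by 0.53 on the log2 scale (adjusted p = 4.32e-08), and LRIG1 had a log2 fold change of -0.10 (adjusted p = 0.397).

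The core of the pathway from receptors to ERK had calls in both directions, in numbers not far from those over all genes. Of its 24 genes, 8 were called higher (23.2% over all genes), 7 lower (23.4%) and 9 were not called, with a median log2 fold change of 0.05. MAP2K2, for the kinase MEK2, rose by 0.57 and GAB1, an adaptor, by 0.45 on the log2 scale. NRAS, a RAS gene, was at 175.5, 176.1 and 160.6 CPM with siControl and at 122.3, 124.5 and 104.3 CPM with siNONO. The groups did not overlap, and it fell by 0.55 on the log2 scale (adjusted p = 7.62e-08). MAPK3, for ERK1, had a log2 fold change of 0.10 (adjusted p = 0.0875). Transcript levels do not measure the phosphorylation of ERK, which was not analysed here.

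Among 11 genes for nuclear ERK substrates and repressors at ETS sites, 3 were called higher (23.2% over all genes) and 5 lower (23.4%), with a median log2 fold change of -0.09. ETS1 fell from 13.9, 14.7 and 12.9 CPM to 7.24, 7.59 and 8.01 CPM, so that the groups lay clearly apart (log2 fold change -0.86 ± 0.08, SE; adjusted p = 3.48e-06). RPS6KA1, for the ERK-activated kinase RSK1, fell by 0.44 on the log2 scale. ELK3 rose by 0.31 and ELK1 by 0.19. CIC, the repressor of the PEA3 group, had a log2 fold change of -0.07 and was not called (adjusted p = 0.0987).

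The immediate early genes, first to be transcribed after growth factor stimulation, gave 6 higher and 3 lower calls of 17, with a median log2 fold change of 0.14. The shares over all genes were 23.2% higher and 23.4% lower. EGR3 rose from 2.34, 2.37 and 3.69 CPM to 7.90, 8.27 and 7.65 CPM, all siNONO libraries being higher (log2 fold change 1.53 ± 0.15, SE; adjusted p = 4.44e-06). EGR2 rose by 0.99 on the log2 scale at under 4 CPM in each library. JUND fell by 0.60 and IER5 by 0.39. Of the more abundant genes, EGR1 was called higher, from a mean of 72.7 to 92.8 CPM (log2 fold change 0.355; adjusted p = 1.66e-05). IER3 (0.25), FOSL1 (0.24) and JUNB (0.21) were also called higher, and KLF6 (-0.26) was called lower. FOS, JUN and MYC were not called, with log2 fold changes of 0.14, -0.08 and -0.03.

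Other genes of the same families as the 10 were called higher in 8 cases of 14 (23.2% over all genes) and lower in 1 (23.4%), with a median log2 fold change of 0.27. DUSP2, a nuclear phosphatase gene, rose from 6.25, 7.34 and 6.84 CPM to 11.7, 13.2 and 16.6 CPM, with the siNONO libraries all higher (log2 fold change 1.01 ± 0.10, SE; adjusted p = 2.84e-06). PHLDA3 rose by 0.58 on the log2 scale. The lowest log2 fold changes were those of ETV1, given above, and DUSP1 (-0.02; adjusted p = 0.898). Of 7 further genes known to follow ERK activity, 5 were called higher and 1 lower, against the same shares over all genes, with a median of 0.24. CCND1, for cyclin D1, rose from 427, 447 and 446 CPM to 592, 594 and 601 CPM without overlap (log2 fold change 0.44 ± 0.03, SE; adjusted p = 9.01e-08). EPHA4 rose by 0.36, SLC20A1 fell by 0.11, and EPHA2 had a log2 fold change of -0.03 (adjusted p = 0.512).

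**Figure D4:**
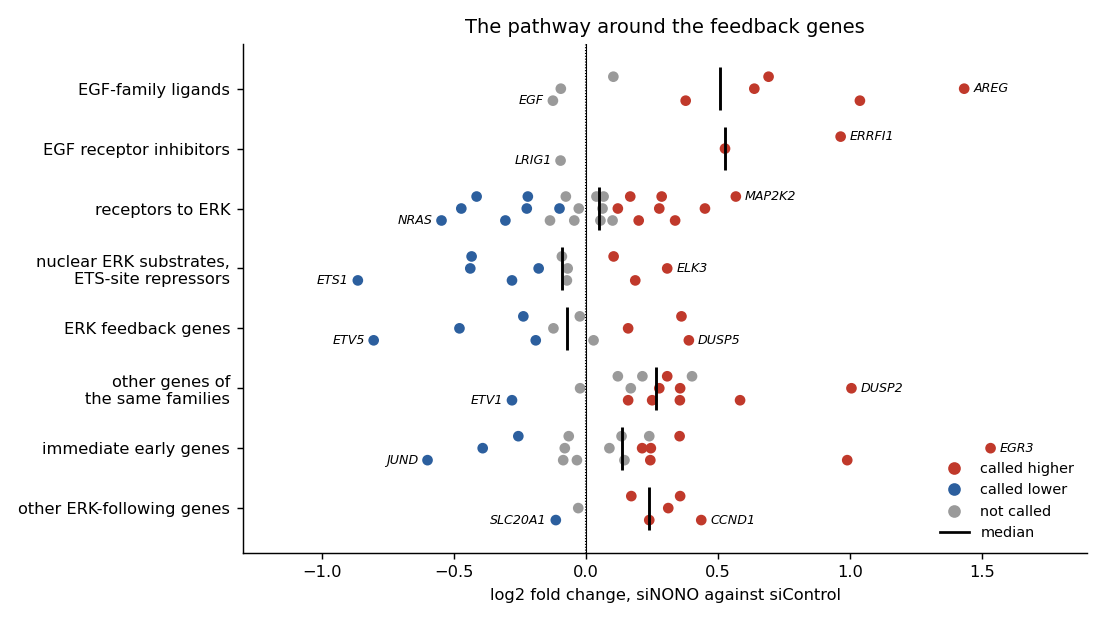
Log2 fold change of siNONO against siControl (horizontal axis) for the genes of each list, 1 point per gene, colored by call, with the list median as a black bar and the lowest and highest gene named. The dotted line is the median of all genes tested (-0.005). The EGF-family ligands have a median of 0.51 and the ERK feedback genes one of -0.07.

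Among the genes of these lists whose log2 CPM ran most like that of DUSP6 over the 6 libraries were CDH1 (Pearson r = 0.852), NF1 (0.846), PHLDA1 (0.824) and SPRY3 (0.809), from 103 genes ranked. The 6 points share their Sets, and none of these 4 genes was called between siControl and siNONO. DUSP6 itself ran only from 182.7 to 198.9 CPM, and SPRY3 held 27 to 46 counts a library. These values are among the highest of the 103 and were not tested.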

How the data were processed

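Per the study's methods, reads were trimmed, aligned with STAR to GENCODE transcripts on GRCh37 and quantified with RSEM (version 1.3.1 in the submitters' processing notes). For each library the authors deposited estimated counts per gene, not normalized, and TPM, scaled by RSEM for length and library size. The kit was stranded; the strand setting of RSEM is not given in the sources used here, so reads of antisense neighbors may not be fully told apart.

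Estimated counts were rounded and tested with edgeR (version 4.0.16, legacy quasi-likelihood form) using TMM factors, the filterByExpr filter and a block for Set, with adjustment by Benjamini-Hochberg across 17000 genes. Calls needed an adjusted p of at most 0.05. CPM used TMM-scaled library sizes. With Set and group in the model, the variation left beyond counting came to a common coefficient of 3.51%. Differences between Sets are not part of that figure. All pairs of replicates were further apart than sampling noise, so none was counted as the same library deposited again. The Set numbers came from the titles and paired the libraries, since deviations from group means correlated at 0.428, 0.257 and 0.509 within Sets 1, 2 and 3 over 10814 genes. The test was checked on simulated counts. Alternatives used other scalings, filters and tools (DESeq2 version 1.42.0, limma version 3.58.1 on log2 TPM) and left out each library. Gene positions came from a later GENCODE release on GRCh37.

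The 10 genes, the lists and the family ratios were chosen with earlier results of these data known. From each list the text names the tested genes with the 2 highest and 2 lowest log2 fold changes and any called gene at 1 or more in size, plus the 5 genes most like DUSP6. EREG, BTC, HBEGF, TGFA, MAPK3, CIC, EGR1, IER3, FOSL1, JUNB, KLF6, FOS, JUN, MYC and DGKG were added after their values were seen. The values of 2 genes that the rule names are not reported here.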

Additional observations from a re-analysis of the deposited data

How the results depend on the processing

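Of 15 alternatives, 6 of which left out a library, all kept the calls of DUSP4, DUSP5, SPRY4, SPRED1, SPRED2 and ETV5 with their direction. In each, 4 feedback genes were called lower, and between 2 and 3 were called higher. Since Set was a block, the partner of a left-out library dropped out of the comparison. The 2 fits that leave out a library of the same Set are thus nearly the same check. ETV4 was called in 8 of the 15, with an adjusted p from 0.00199 to 0.451. DUSP6 turned to -0.083 with limma on log2(TPM + 1) and on log2(TPM + 0.1), where its adjusted p was 0.138 and 0.144 (range over alternatives 0.134 to 0.818). The log2 fold change of PHLDA1, not called, turned to 0.015 without siControl Set 3 and 0.012 without siNONO Set 3, and leaving out single libraries gave -0.042 to 0.015. The 7924 calls over all genes became 5227 with DESeq2, 5257 with limma on log2(TPM + 1) and 5250 on log2(TPM + 0.1), and 6497 to 7653 without 1 library. With limma on log2(TPM + 1), 1643 were higher and 3614 lower, or 31.3% higher against 49.7%. The median of the feedback genes was then -0.149, and -0.165 on log2(TPM + 0.1), where the medians of all genes were -0.07 and -0.09. The causes were not tested. Dropping the replicate block gave 6164 called genes, ended the call of ETV4 (adjusted p = 0.0645) and changed no other call among the feedback genes. Depth was lowest for SPRY2, at 169 to 298 counts a library, and its interval was the widest. The log2 fold change of SPRY2 ran from -0.217 with limma on log2(TPM + 0.1) to -0.069 without siControl Set 2. It was not called in any alternative (adjusted p from 0.19 to 0.703).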
